A study of Drosophila melanogaster with 6 samples.

Results

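The 51 genes described here encode the factors that start, extend and end protein synthesis on cytosolic ribosomes. The set was chosen with earlier results of these data known. It holds every gene in the count files whose symbol is eIF, eEF or eRF followed by a number, 51 of the 13955 genes counted. The gene name table held 53 such symbols, and the other 2, eEF1alpha1 and eEF5, were not analysed here. The members comprised 5 eIF2 genes, 5 eIF2B genes, 16 eIF3 genes, 13 eIF4 genes, 5 genes of start codon selection and subunit joining, 5 elongation factors and 2 release factors.

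Expression was measured by RNA-seq of Drosophila melanogaster wing discs, the larval epithelia that form the adult wing, and the series asked which genes change when Nrf2 is overexpressed. Nrf2 is the vertebrate name of the stress-responsive transcription factor encoded in flies by cnc. The discs came from wandering third-instar female larvae kept at 28 °C, with 3 control and 3 Nrf2 overexpression libraries. In the study's methods both groups carried hs-FLP, a flipped-out tub>>Gal4 driver, whose promoter is broadly active, UAS-CD8-GFP and 1 copy of tub-Gal80ts, a temperature-sensitive repressor of Gal4, and only the Nrf2 overexpression larvae also carried UAS-nrf2. The labels call the control wild type and give it the name yw, so the exact control genotype differs between these sources. The tub driver is not restricted to the disc, and Nrf2 in other tissues was not measured. UAS-nrf2 was written on the third chromosome opposite tub-Gal80ts, so the groups also differ at the site of the transgene. No source says that the 3 libraries of a group came from separate cultures, and p-values measure the spread between these libraries.

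Initiation begins when eIF2, a trimer that binds GTP, brings the initiator tRNA to the small ribosomal subunit, helped by eIF1, eIF1A, eIF3 and eIF5. The eIF4 factors bind the mRNA cap and unwind the leader, eIF5B joins the large subunit, and eIF2B recharges eIF2 with GTP. The eEF1 complex then delivers aminoacyl-tRNAs, eEF2 moves the ribosome along the mRNA, and eRF1 with eRF3 releases the finished chain at a stop codon. Several initiation factors have paralogs in flies, and some of these are best known from the germline.

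The libraries held between 16464410 and 16682764 counts. Counts of cnc were 1983, 1777 and 1848 in the control and 84044, 147169 and 172120 in the Nrf2 libraries, so that the overexpressed gene was higher in every library labelled as overexpressing it. Of 8 wing disc epithelium markers measured, 5 were higher and 1 was lower, beside 30.9% and 31.6% of all genes tested. Every one of these markers had at least 1044 counts in every library. The 4 fat body markers summed to 2223, 6627 and 137 counts in the control and 1290, 1277 and 144 in the Nrf2 libraries, so that trace tissue varied within each group, and 3 of 4 markers of adult muscle precursors were lower. The part of these differences in the results was not tested. In whole discs, fewer cells of a type and less RNA per cell cannot be told apart.

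Of the 51 members, 43 passed the filter on low counts. Expression of 5 rose and that of 17 fell, at an adjusted p under 0.05 (edgeR's quasi-likelihood test, Benjamini-Hochberg adjustment over all 8361 genes tested), and 21 were not called. Members higher were thus 11.6% of those tested, against 30.9% of all genes, and members lower were 39.5%, against 31.6%. With a fold of at least 1.4 in addition, 1 member was higher and 10 were lower. The member higher was eIF4E3, with 1, 0 and 1 counts in the control, which passed the filter only through the Nrf2 libraries. The 10 lower are 23.3% of the members tested. Over all genes 20.5% were higher and 21.1% were lower by this rule. With counts scaled by library totals alone the same rule gave 3 higher and 6 lower. The shares of all genes under that scaling are not given here, so these 2 counts have no share beside them. Among members the median log2 fold change was -0.17, beside -0.01 for all genes, whose quartiles were -0.43 and 0.43. The groups did not overlap for 27 members, or 62.8%, against 68.4% of all genes tested. All members together took between 2.46% and 2.62% of the counts in every library.

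**Figure D1:**
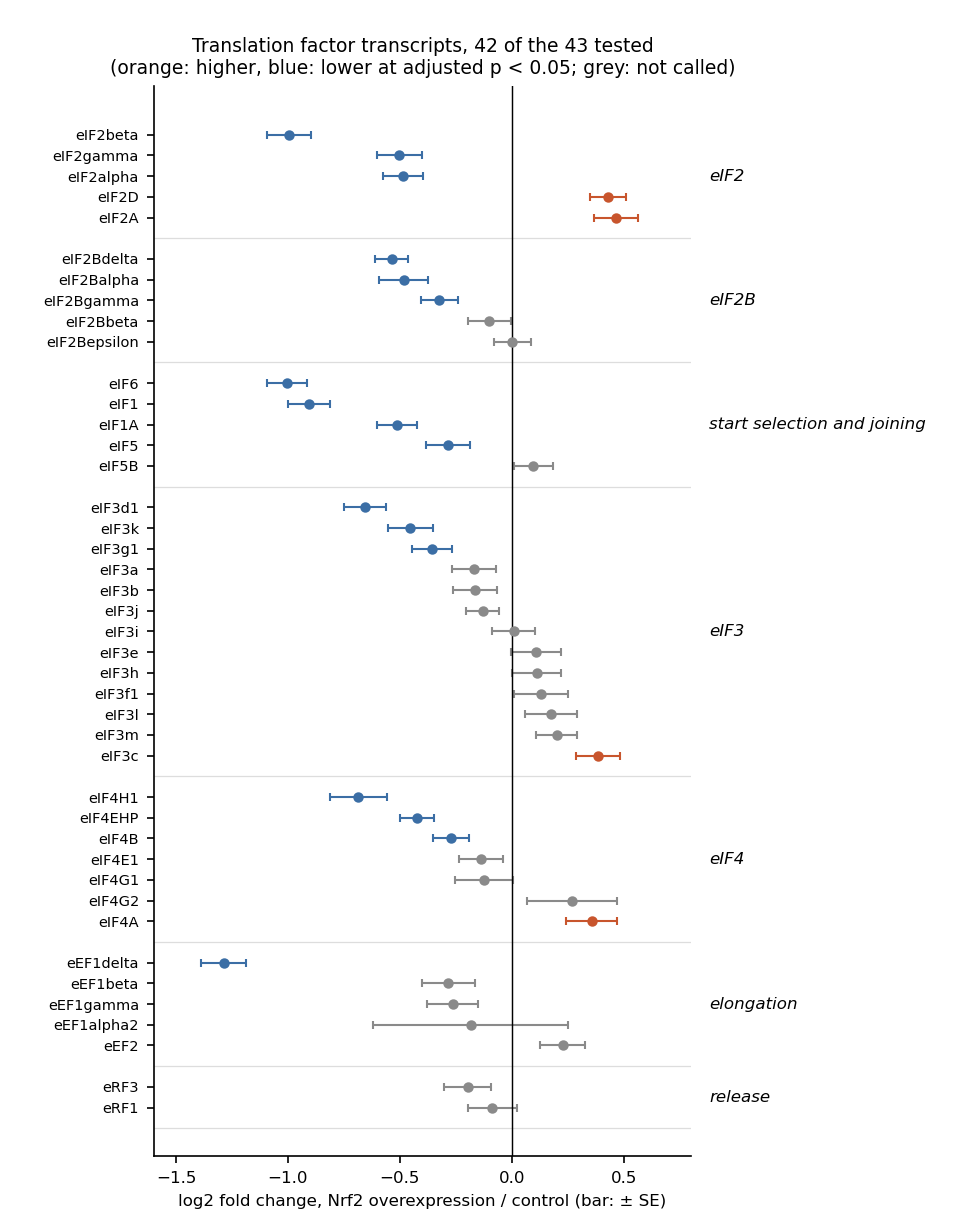
Log2 fold change (Nrf2 overexpression over control, bar: SE) of 42 members by factor group, coloured by the call at an adjusted p under 0.05. eIF4E3, at 5.38, lies beyond the axis and is left out. The eIF2, eIF2B and start selection groups lie mostly left of 0, down to -1.005 for eIF6, whereas the eIF3 genes lie on both sides.

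In Nrf2 discs the 3 subunits of eIF2 fell, whereas eIF2A and eIF2D, which are not subunits of that trimer despite their names, rose. Normalized counts, which are counts scaled to a common effective library size, of eIF2beta were 6212, 7189 and 6960 in the control and 3557, 3170 and 3485 in the Nrf2 libraries. This subunit, which contacts eIF5 and eIF2B, thus fell in every Nrf2 library below the lowest control, with a log2 fold change of -0.996 (SE 0.10, edgeR adjusted p = 2.98e-05). The regulatory subunit eIF2alpha, whose phosphorylation stalls the cycle, fell by 0.49 on the log2 scale (SE 0.09, edgeR adjusted p = 0.0011). The GTP-binding subunit eIF2gamma fell by 0.50 (SE 0.10, edgeR adjusted p = 0.0018), and 15.98% of its exon bases are shared with Su(var)3-9 on the same strand. Summed over the trimer, expression went from 1053 ± 80.7 CPM (counts per 1000000 of scaled library size) in the control to 662 ± 30.9 in Nrf2 discs (SD, n = 3), a difference of -37.2%.

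The subunits did not fall in equal measure. The ratio of eIF2gamma to eIF2beta, both per kilobase of exon, was between 0.479 and 0.508 in the control and between 0.644 and 0.716 in the Nrf2 libraries. The ratio of eIF2alpha to eIF2beta was 0.461 ± 0.0318 in the control and 0.656 ± 0.0333 in Nrf2 discs (SD, n = 3). Both pairs were picked after their values were seen, and are given without a test. In the control eIF2beta had the highest level of the group, 362 ± 27.3 CPM per kilobase, and in Nrf2 discs eIF2A did, at 273 ± 12.5 (SD, n = 3).

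eIF2A is a separate protein that can bring initiator tRNA to the ribosome without eIF2. Its normalized counts were 8615, 10049 and 9196 in the control and 13447, 12287 and 12689 in the Nrf2 libraries, so every Nrf2 library lay above every control, by 1.38-fold on average (log2 fold change 0.46, SE 0.10, edgeR adjusted p = 0.00258). The gene lies on chromosome arm 3L of the BDGP6 assembly, from 21824740 to 21827856. eIF2D handles tRNA at the ribosome in recycling and reinitiation. It was counted at 771, 869 and 768 in the control and at 1116, 1083 and 1038 in the Nrf2 libraries after normalization. The groups were apart here too (log2 fold change 0.43, SE 0.08, edgeR adjusted p = 0.00124). DENR, which together with MCTS1 resembles eIF2D in domain structure, fell by 0.92 on the log2 scale, and the ratio of eIF2D to DENR per kilobase went from 0.278 ± 0.0104 to 0.707 ± 0.0218 (SD, n = 3, pair picked after its values were seen).

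eIF2B, the exchange factor of eIF2, fell in part. The regulatory subunits eIF2Balpha and eIF2Bdelta fell by 0.48 (SE 0.11) and 0.54 (SE 0.08) on the log2 scale, and eIF2Bgamma, which partners the catalytic subunit, fell by 0.32 (SE 0.08). For eIF2Bdelta the normalized counts were 1645, 1811 and 1727 in the control and 1156, 1235 and 1179 in the Nrf2 libraries, with edgeR adjusted p = 0.000215. The remaining regulatory subunit eIF2Bbeta (log2 fold change -0.10) and the catalytic subunit eIF2Bepsilon (0.00) were not called, and their groups overlapped. The ratio of eIF2Bepsilon to eIF2Bdelta per kilobase was 0.743 ± 0.0131 in the control and 1.08 ± 0.0517 in Nrf2 discs (SD, n = 3), a description of a pair picked after its values were seen. eIF2Bbeta had the highest level of the 5, at 57.2 ± 4.32 CPM per kilobase in the control, with library values of 1218, 1401 and 1252 in the control and 1307, 1224 and 1078 in Nrf2 discs as normalized counts.

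Among the factors of start codon selection and subunit joining, 4 of 5 fell, or 80.0%, beside 31.6% of all genes tested. eIF1, which guards against initiation at wrong codons, was counted at 5101, 5683 and 5812 in the control and 3153, 2797 and 2901 in the Nrf2 libraries (normalized). All Nrf2 libraries were well below the controls, with a log2 fold change of -0.91 (SE 0.09, edgeR adjusted p = 4.05e-05), and eIF1 was the member of this group with the highest control level per kilobase, 489 ± 33.5 CPM (SD, n = 3). It lies on 3L from 3223341 to 3224650 and has the shortest exon length of all 51 members, 681 bp. eIF6, which keeps large subunits from joining small ones too early and acts in their biogenesis, had normalized counts of 2360, 2827 and 2709 in the control and 1337, 1274 and 1324 in the Nrf2 libraries. These 3 Nrf2 values were close together and lay at about a 2.01-fold lower level (log2 fold change -1.005, SE 0.09, edgeR adjusted p = 1.93e-05).

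eIF1A, which acts with eIF1 in scanning, fell by 0.51 on the log2 scale (SE 0.09, edgeR adjusted p = 0.000773). eIF5, the GTPase-activating protein of eIF2, fell by 0.29 (SE 0.10, edgeR adjusted p = 0.0283). That call is uncertain, because 80.8% of the exon bases of eIF5 are shared with CG46312 on the same strand, and because it was lost when control replicate 1, 2 or 3 or Nrf2 overexpression replicate 2 was left out, with log2 fold changes between -0.35 and -0.22 over the 6 such fits. eIF5B, the joining GTPase, was not called (log2 fold change 0.09, SE 0.09). The summed level of the 5 genes went from 1411 ± 32.0 to 1025 ± 53.7 CPM (SD, n = 3).

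**Figure D2:**
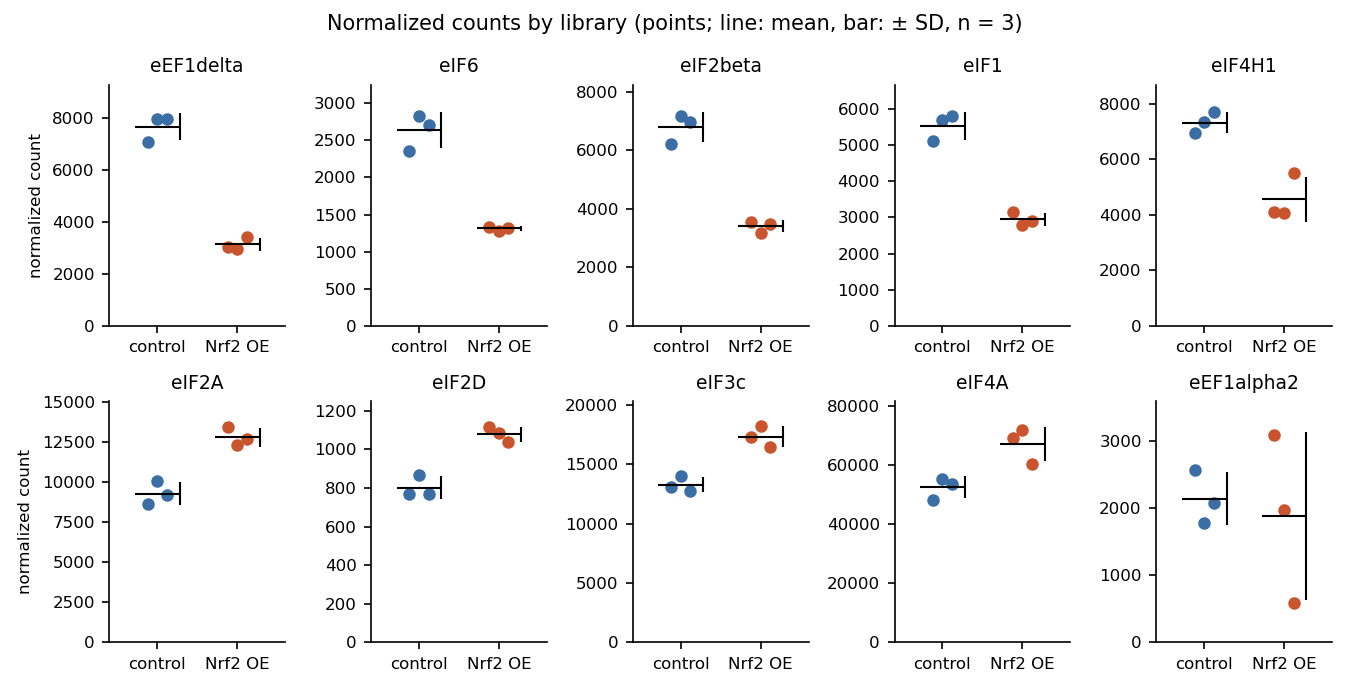
Normalized counts of 10 members in each library (points), with the group mean (line) and SD (bar, n = 3); axes start at 0. The top row holds the 5 members with the largest falls, the bottom row 4 that rose and eEF1alpha2, whose Nrf2 values run from 586 to 3094.

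eIF3, the largest initiation factor, which binds the small subunit and the other factors, differed in its summed level by less than the spread between libraries. Of 13 genes tested, 1 rose, 3 fell and 9 were not called. The shares higher and lower, 7.69% and 23.1%, stood beside 30.9% and 31.6% of all genes tested. The summed level was 6393 ± 380 CPM in the control and 6371 ± 283 in Nrf2 discs (SD, n = 3). The core subunit eIF3c was counted at 13086, 13999 and 12745 in the control and 17293, 18200 and 16494 in the Nrf2 libraries (normalized). It was higher in all 3 Nrf2 libraries (log2 fold change 0.38, SE 0.10, edgeR adjusted p = 0.0062), and without control replicate 3 the call was narrowly lost (edgeR adjusted p = 0.0522). eIF3d1, whose human ortholog can bind the cap, had normalized counts of 8362, 9393 and 8698 in the control and 5660, 5310 and 5803 in the Nrf2 libraries. It was the subunit that fell most (log2 fold change -0.66, SE 0.09, edgeR adjusted p = 0.000227).

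The 2 subunits with opposite changes were at like levels in the control, where the ratio of eIF3c to eIF3d1 per kilobase was 0.948, 0.903 and 0.888. In the Nrf2 libraries this ratio was 1.85, 2.08 and 1.72, apart from the control and 2.06 times as high on average (pair picked after its values were seen). eIF3g1, an RNA-binding subunit, and eIF3k, a peripheral subunit, fell by 0.36 (SE 0.09) and 0.45 (SE 0.10) on the log2 scale. For eIF3g1 the normalized counts were 4989, 5562 and 5279 in the control and 4378, 3969 and 4008 in the Nrf2 libraries, with no overlap. Of the subunits not called, the core subunits eIF3a (-0.17) and eIF3b (-0.16), the loosely bound eIF3j (-0.13) and the WD-repeat subunit eIF3i (0.01) had log2 fold changes at or below 0.01. The values of eIF3e (0.11), eIF3h (0.11), eIF3f1 (0.13), eIF3l (0.17) and eIF3m (0.20), which with eIF3a, eIF3c and eIF3k form the octamer described in mammals, were above 0. eIF3f1 had the highest level per kilobase in the group, 444 ± 45.8 CPM in the control (SD, n = 3), and was counted at 8457, 10261 and 10069 in the control and 11593, 10591 and 9303 in the Nrf2 libraries, so its groups overlapped.

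Of the 8 eIF4 genes tested, 2 rose, 3 fell and 3 were not called. Over all genes tested the shares higher and lower were 30.9% and 31.6%. The helicase eIF4A, which unwinds mRNA leaders, had normalized counts of 48248, 55390 and 53542 in the control and 69029, 71740 and 60458 in the Nrf2 libraries. It rose by 1.28-fold (log2 fold change 0.36, SE 0.11, edgeR adjusted p = 0.0204), with the groups apart. However, it lost the call without control replicate 1 or control replicate 3, with upper-quartile scaling and with a replicate term. It stood far above the rest of the group at 1271 ± 90.0 CPM per kilobase in the control and 1628 ± 143 in Nrf2 discs (SD, n = 3). CG7483, recorded under the synonym eIF4A3 and thus no member by symbol, is the related helicase of the exon junction complex, and its normalized counts were 2829, 3223 and 2872 in the control and 1599, 1505 and 1644 in the Nrf2 libraries (log2 fold change -0.91).

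Both RNA-binding partners of eIF4A fell. Normalized counts of eIF4H1 were 6936, 7366 and 7694 in the control and 4093, 4074 and 5506 in the Nrf2 libraries. The Nrf2 values were all lower, Nrf2 overexpression replicate 3 being the nearest to the control (log2 fold change -0.69, SE 0.13, edgeR adjusted p = 0.00117). eIF4B fell by 0.27 on the log2 scale (SE 0.08, edgeR adjusted p = 0.0151), a call that was lost without control replicate 2 or control replicate 3.

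Among the cap-binding proteins, the main cap-binding factor eIF4E1 had normalized counts of 8930, 9622 and 9542 in the control and 9338, 8351 and 7841 in the Nrf2 libraries, which overlapped (log2 fold change -0.14, SE 0.10). Its relative eIF4EHP, which binds caps but not eIF4G and represses bound mRNAs, was counted at 1151, 1189 and 1280 in the control and 909, 869 and 923 in the Nrf2 libraries. It fell without overlap (log2 fold change -0.42, SE 0.08, edgeR adjusted p = 0.000898). 7.0% of its exon bases are shared with Syx1A on the same strand.

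The scaffold eIF4G1 had values of 7478, 6808 and 6854 in the control and 5239, 6642 and 7512 in the Nrf2 libraries, and eIF4G2, a paralog known from the male germline, had 976, 684 and 894 against 713, 1058 and 1306, all as normalized counts. Neither was called, and the groups overlapped for both. Per kilobase, eIF4G2 stood at 5.63 ± 0.998 CPM in the control against 64.6 ± 3.43 for eIF4G1 (SD, n = 3), so it was lowly expressed but not near absent.

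**Figure D3:**
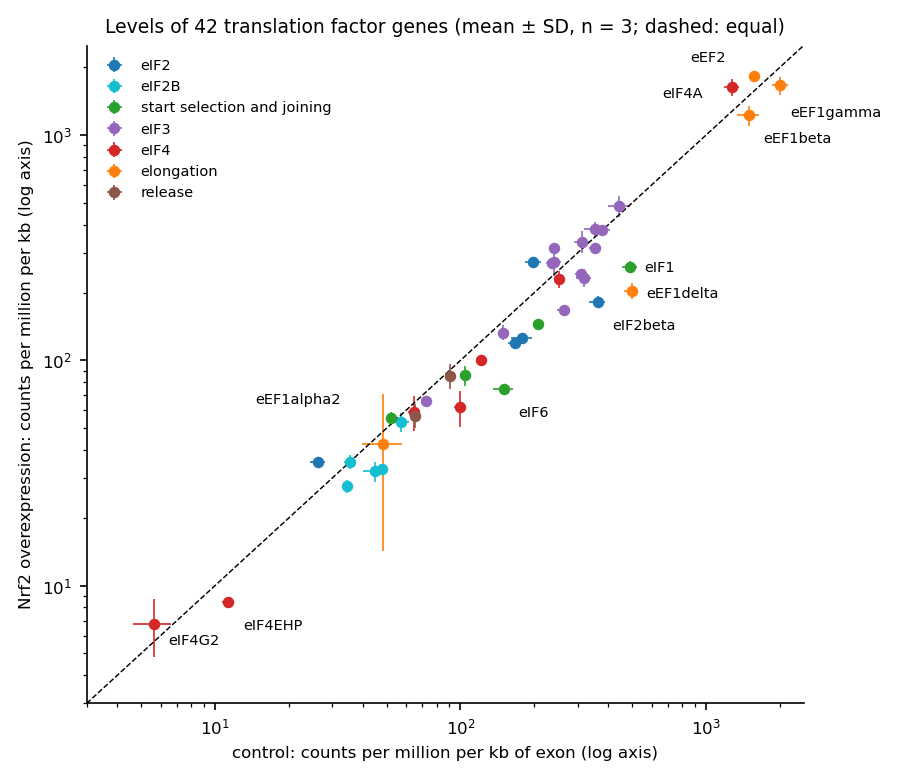
Mean level per kilobase of exon in control (x) and Nrf2 overexpression discs (y) of 42 members, in CPM on log axes, with SD bars (n = 3) and the line of equal levels. Levels run from 5.63 for eIF4G2 to 2002 for eEF1gamma in the control; eEF1delta, eIF1, eIF2beta and eIF6 lie clearly below the line.

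The remaining paralogs were near absent. eIF3d2, eIF3f2 and eIF4E4 had 0 counts in all 6 libraries. The floor for 0 counts was set at an expected count of 3 in a library, the approximate 95% upper limit, or at most 0.182 CPM. eIF3g2 had 1 count, in Nrf2 overexpression replicate 2. For eIF4E7 the counts were 0, 1 and 0 in the control and 1, 0 and 1 in the Nrf2 libraries, and for eIF4H2 they were 0, 2 and 0 against 4, 1 and 1. These values were at or near the floor in both groups, whereas the somatic paralogs eIF3d1, eIF3f1, eIF3g1, eIF4E1 and eIF4H1 were all abundantly counted in every library.

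eIF4E5 was counted 5, 2 and 1 times in the control and 1, 5 and 4 times in the Nrf2 libraries, and a difference was not detectable at this depth. eIF4E6, which was short of the filter on low counts, had 5, 12 and 7 counts in the control and 3, 2 and 4 in the Nrf2 libraries. Its groups were apart by 1 count, the ratio of the summed counts was 0.359 (95% interval 0.147 to 0.8, counting error only), and without the filter it had edgeR adjusted p = 0.0676. Of 13 markers of the male germline, the 11 other than alphaTub84D, which is widely expressed, and janB, with 11 to 36 counts, had at most 16 counts in any library and at most 4 in any Nrf2 library.

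eIF4E3 was the exception among the near-absent paralogs. This cap-binding protein, known in flies for its part in sperm formation, was counted 1, 0 and 1 times in the control and 30, 52 and 21 times in the Nrf2 libraries. All Nrf2 libraries were above all controls, the summed counts were 2 and 103, and their ratio after scaling was 49.3 (95% interval 13.3 to 412, counting error only). The gene passed the filter on low counts only through the Nrf2 libraries, so its call among the 5 members higher is no separate support for the rise. The level stayed low, between 0.265% and 0.596% of all eIF4E-family counts in the Nrf2 libraries, against at most 0.011% in the control.

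The genes nearest to eIF4E3 also differed between the groups. eIF4E3 lies on 3L from 8229224 to 8230568, on the plus strand. CG7213 runs on the opposite strand from 8240601 back to 8231814, so its far end, not its start, lies 1246 bp beyond eIF4E3. It was counted 0, 0 and 0 times in the control and 47, 118 and 117 times in the Nrf2 libraries. Dscam4, 8079 bp away on the same strand as eIF4E3 and related to the cell adhesion protein Dscam1, had 11, 11 and 3 counts against 1478, 2159 and 1892 (log2 fold change 7.70, SE 0.26). Both thus rose with eIF4E3, and from a like near-absent level. The spans of CG7213 and Dscam4 overlap on opposite strands, from 8238647 to 8240601, and the treatment of strand in counting is not given. Reads there cannot be assigned surely, so the rises of these genes may not be separate. On the other side CG13678, 6271 bp away, had 36, 75 and 62 counts in the control and 15, 26 and 14 in the Nrf2 libraries, and so was lower. Of 21 other genes within 60 kb, 17 were tested, of which 6 were higher and 6 were lower. Over all genes tested these shares were 30.9% and 31.6%. CG7213 and Dscam4 passed the filter on low counts only through the Nrf2 libraries, so their calls are no separate support for their rise.

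The part of this neighbourhood in the rise of eIF4E3 was not tested. The insertion site of UAS-nrf2 is not given in the sources used here, and an effect of Nrf2 and a difference between the third chromosomes of the groups cannot be told apart at this locus.

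**Figure D4:**
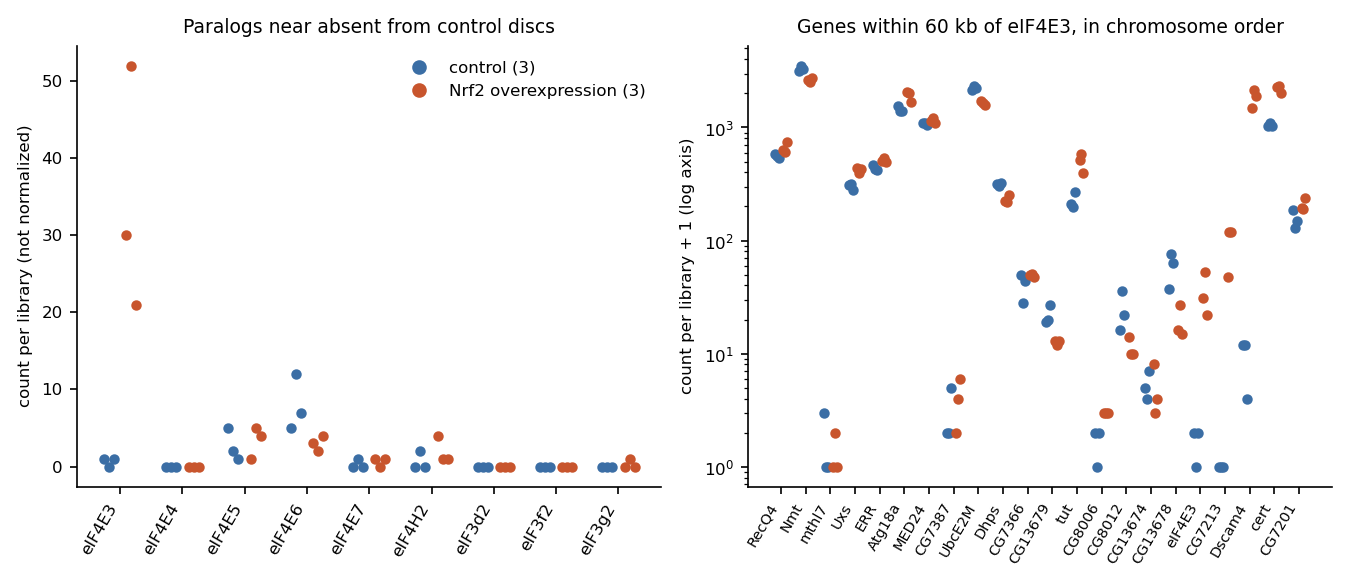
Left, counts in each library (not normalized) of the 9 paralogs near absent from control discs; eIF4E3 alone exceeds 12, with 21 to 52 counts in the Nrf2 libraries. Right, counts plus 1 on a log axis of the genes within 60 kb of eIF4E3 in chromosome order. CG7213 and Dscam4, whose spans overlap, rise with eIF4E3.

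Among the elongation factors 1 of 5 genes fell, or 20.0%, beside 31.6% of all genes tested, and the other 4 were not called. eEF1delta, an exchange subunit that recharges eEF1A with GTP, had normalized counts of 7082, 7954 and 7973 in the control and 3033, 2975 and 3420 in the Nrf2 libraries. This was the largest fall of the 43 members tested, 2.44-fold, and the groups were far apart (log2 fold change -1.29, SE 0.10, edgeR adjusted p = 9.72e-06). The gene lies on 2L from 10232507 to 10234450. Its partners in the eEF1B complex, the other exchange subunit eEF1beta and the structural subunit eEF1gamma, had log2 fold changes of -0.29 (SE 0.12, edgeR adjusted p = 0.0592) and -0.26 (SE 0.11, edgeR adjusted p = 0.068), while DESeq2's Wald test called both lower (adjusted p = 0.0211 and 0.0195).

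The ratio of eEF1gamma to eEF1delta per kilobase was 4.04, 4.17 and 3.87 in the control and 9.13, 7.75 and 7.7 in the Nrf2 libraries, and that of eEF1beta to eEF1delta was 3.0 ± 0.164 and 6.03 ± 0.797 (SD, n = 3). By contrast the ratio of eEF1gamma to eEF1beta was 1.34 ± 0.0387 and 1.36 ± 0.0615, with overlapping groups. The ratios that differed were those with eEF1delta (pairs picked after their values were seen). eEF1gamma had the highest level per kilobase of all members in the control, 2002 ± 147 CPM (SD, n = 3), with normalized counts of 52227, 60523 and 56408 in the control and 50597, 42124 and 48082 in the Nrf2 libraries.

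In Nrf2 discs the highest level per kilobase of exon was that of eEF2, the translocase, at 1833 ± 53.0 CPM, against 1567 ± 66.3 in the control (SD, n = 3). Per kilobase of coding exon alone the order differed, with eIF4A at 3334 and eEF2 at 2212 CPM in Nrf2 discs. The groups of eEF2 were apart, with a log2 fold change of 0.23 that missed the threshold (SE 0.10, edgeR adjusted p = 0.0759). DESeq2's Wald test called eEF2 higher (adjusted p = 0.00272). eEF1alpha2, an eEF1A paralog that delivers aminoacyl-tRNA, had normalized counts of 2565, 1778 and 2082 in the control and 3094, 1972 and 586 in the Nrf2 libraries. Nrf2 overexpression replicate 3 stood below all other libraries, and the log2 fold change was -0.18 (SE 0.43) with it and 0.26 without it. The fat body markers summed to 144 counts in that library and to 137 in control replicate 3, and their part in the eEF1alpha2 values was not tested.

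Neither release factor was called. eRF1, which reads stop codons, had the higher level of the pair, 90.9 ± 4.52 CPM per kilobase in the control (SD, n = 3), and normalized counts of 4832, 4834 and 4428 in the control and 3880, 5015 and 4358 in the Nrf2 libraries. eRF3, its GTPase partner, had 4880, 4823 and 4620 against 3629, 4235 and 4633. Log2 fold changes were -0.09 (SE 0.11) and -0.20 (SE 0.10), and the groups overlapped for both.

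Fold changes over all genes went with exon length, and among the members those under 1200 bp had the lowest median. Of all genes tested with exons under 1200 bp, 54.7% were lower (median log2 fold change -0.42), and 7 of 10 members of that length were lower, with a median of -0.47. From 1200 to 2500 bp 7 of 19 members were lower, with a median of -0.13, beside -0.11 and 35.9% for all genes. At 2500 bp and over 3 of 14 members were lower (eIF4H1, eIF4EHP and eIF5), and their median of -0.14 stood beside a median of 0.24 for all genes, of which 16.4% were lower. Pearson's r of log2 fold change on log2 exon length was 0.396 over 42 members without eIF4E3, 0.00963 over 43 with it, and 0.227 over 8159 genes. These are correlations across genes that share the same 6 libraries.

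When the trend with exon length was removed within each library, 10 members were higher and 19 were lower. The shares of all genes called in that fit are not given here. These counts, and that of the eIF3 group below, thus have no share to stand beside. All 5 members that had risen and 15 of the 17 that had fallen kept their call, and eEF1delta (-0.99), eIF2beta (-0.79), eIF6 (-0.77) and eIF1 (-0.51) still fell, by less on the log2 scale. eIF3g1 and eIF3k were no longer called. The eIF3 group changed most, with 6 of 13 genes higher: eIF3e, eIF3f1, eIF3h, eIF3i and eIF3m joined eIF3c. Conversely eIF3a, eIF3b, eIF4G1 and eRF3 became lower. Whether the trend belongs to the biology or to the libraries was not tested.

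**Figure D5:**
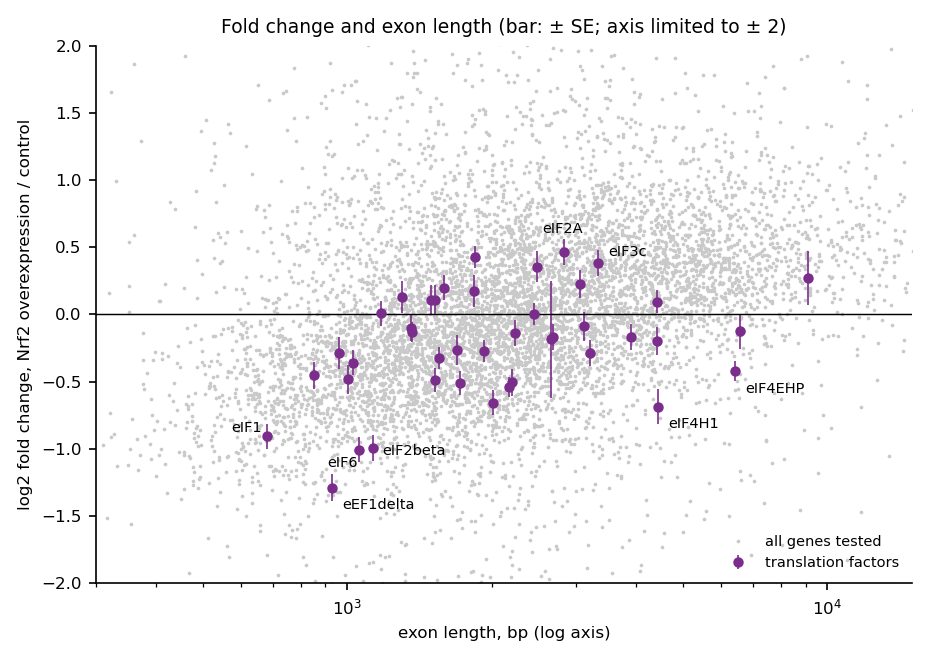
Log2 fold change against exon length in bp (log axis) for all genes tested (grey) and 42 members (purple, bar: SE), with the y axis limited to between -2 and 2. The fallers eIF1, eEF1delta, eIF6 and eIF2beta are short, whereas eIF4H1 and eIF4EHP are long genes that fell.

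Regulators and partners of these factors, from lists that hold no member, gave the setting. Of 11 regulators of cap and poly(A) function measured, 6 were higher and 2 were lower, beside 30.9% and 31.6% of all genes tested. Thor, the 4E-BP that blocks eIF4E, had normalized counts of 166, 244 and 265 in the control and 1588, 1744 and 765 in the Nrf2 libraries. Its log2 fold change was 2.60 (SE 0.29), and the ratio of Thor to eIF4E1 per kilobase was 0.0708 ± 0.014 in the control and 0.470 ± 0.167 in Nrf2 discs (SD, n = 3, pair picked after its values were seen). Lk6, the kinase of eIF4E (log2 fold change 1.72), and larp (0.89) rose as well, while Fmr1 (-0.56) and bel (-0.33), an RNA helicase, fell. The calls of bel and of pAbp (0.29) were lost in most fits that left out a library.

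Of 5 genes that act on eIF2 or in the integrated stress response, 3 were higher and 1 was lower. Over all genes tested the shares were 30.9% and 31.6%. Both eIF2alpha kinases rose, Gcn2 by 0.59 and PEK by 0.44 on the log2 scale, as did the transcription factor Xrp1 (1.39). PPP1R15, which helps dephosphorylate eIF2alpha, fell by 0.35, and crc, the ATF4 ortholog, was not called (0.22). Protein levels and phosphorylation were not measured.

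Of 9 genes of recycling, rescue, non-canonical initiation and factor modification, 1 was higher and 6 were lower. Over all genes tested the shares were 30.9% and 31.6%. The recycling ATPase pix (ABCE1) rose (log2 fold change 0.63). kra, a mimic of the carboxy-terminal part of eIF5, fell most (-1.38), and the ratio of eIF5 to kra per kilobase went from 0.310 ± 0.0392 to 0.660 ± 0.0699 (SD, n = 3, pair picked after its values were seen). After kra came DENR (-0.92) and CG8005 (-0.49), the enzyme Dhps that begins the hypusine modification of eIF5A, a gene that lies within the 60 kb beside eIF4E3.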

How the data were processed

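Total RNA of the discs was made into Illumina TruSeq libraries. The deposited values are raw counts per gene, made by the authors from reads checked with FastQC 0.11.5 and aligned with Bowtie to BDGP6, per the labels' processing notes; the counting tool, its treatment of strand and of multiply mapped reads are not given in the sources used here. Symbols and exon lengths (exons of all transcripts merged) came from the BDGP6.54 annotation by identifier. Among the members, 20 share exon bases with another gene, up to 16.8% except for eIF5, and reads there cannot be assigned surely.

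Low counts were removed with filterByExpr, libraries were scaled by TMM, and 8361 genes were tested with edgeR 4.0.16 (quasi-likelihood test, no covariate, R 4.3.3). The script was tested on simulated counts. Calls used an adjusted p under 0.05. Replicates are the 3 numbered libraries of each label. Every member is named, and library values are given for the 5 largest rises and falls, near-absent members, paralogs and the highest member per kilobase of each group. Members and lists were chosen with earlier results of these data known. Intervals cover counting error only. Alternatives were 3 other scalings, DESeq2 1.42.0, limma-voom (limma 3.58.1), 2 other filters, an adjusted p under 0.01, a replicate term, removal of the length trend and leaving out each library. Sequences were not used here.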

Additional observations from a re-analysis of the deposited data

How the results depend on the processing

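Over 15 alternatives, 16 of the 22 called members kept their call (eIF4E3 over 14, since a minimum of 10 counts in every library removes it), and none of the 22 changed sign. eIF3c, eIF3g1, eIF3k, eIF4A, eIF4B and eIF5 lost the call under at least 1. Upper-quartile scaling removed the call of eIF4A, and total counts only removed that of eIF5. Of the 21 members not called, 15 gained a call with the same sign under at least 1 alternative. Among these, eIF4G2 was called higher without Nrf2 overexpression replicate 1 (log2 fold change 0.48). Members higher with a fold of at least 1.4 numbered 1, but 3 with total counts only, 0 with at least 10 counts in every library, and 1 to 2 when a library was left out. Members lower by that fold numbered 6 with total counts only. With the trend with exon length removed 10 members were higher, and 3 to 7 were higher when a library was left out (3 without control replicate 3). Shares of all genes called under these alternatives are not given here. The members' median log2 fold change was -0.24 with upper-quartile scaling. The cause of these changes was not tested. With the replicate block 4 members were higher and 15 lower, and eIF4A, eIF4B and eIF5 lost their call; same-numbered libraries had correlations of deviations of -0.209, 0.0878 and 0.127, so the numbers were not taken as pairs.

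Signs turned only for members not called. Removing the length trend gave 0.0328 for eIF2Bbeta, -0.014 for eIF2Bepsilon, 0.0028 for eIF3j, -0.16 for eIF4G2 and -0.12 for eIF5B. Upper-quartile scaling gave -0.0648 for eIF3i and for the eIF3 median, and -0.0725 for eIF2Bepsilon, which was -0.0002 by limma-voom. With a library left out the ranges were -0.0487 to 0.0647 for eIF2Bepsilon, -0.0552 to 0.0524 for eIF3i and the eIF3 median, -0.228 to 0.0136 for eIF4G1, -0.73 to 0.26 for eEF1alpha2 and -0.18 to 0.006 for eRF1. Coding length from a protein table was not run; coding exons of the annotation, chosen after seeing the data, were used instead, and by that length eEF1gamma and eIF4A stood at 2625 and 2604 CPM per kilobase in the control, and in Nrf2 discs eIF4A (3334) stood above eEF2 (2212), which was highest by exon length. eIF1A, not eIF1, was then the highest start selection factor in Nrf2 discs. Counts under about 10 limit what can be said of the near-absent paralogs.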
